A study of Drosophila melanogaster with 12 samples.

Results

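Shavenbaby (Svb) is the somatic transcription factor made by the ovo locus of Drosophila melanogaster. The full-length protein represses its targets, and a shorter form, made when a trigger peptide leads the proteasome to trim the amino end, activates them. In the adult midgut, intestinal stem cells divide and give rise to enteroblasts and enteroendocrine cells, and enteroblasts mature into absorptive enterocytes. Described here is the comparison of cells that overexpressed SvbACT, a form that the series' text calls constitutive, with cells that carried an RNA interference construct against svb.

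The comparison takes 6 of the 12 samples of the series, 3 of SvbACT and 3 labelled svb RNAi, chosen by genotype alone. In SvbACT cells UAS-SvbACT::GFP stood opposite tubGal80TS, and in cells labelled svb RNAi UAS-SvbRNAi, a VDRC line, took its place. Both crosses also carried the driver esg-Gal4 with UAS-GFP, so that they shared the driver, the temperature-sensitive Gal80 and GFP and differed in the further UAS transgene. Flies were virgin females, kept for 3 days at room temperature and then for 6 days at 29 °C, at which Gal80 no longer blocks the driver, so that they were 9 days old in all. Over 20 females were pooled for each sample. Cells were sorted by fluorescence from the posterior midgut. esg-Gal4 is active in stem cells and enteroblasts, so the sort holds both. SvbACT is fused to GFP, the colour of the sort, so that any effect of the fusion on the gate cannot be told apart from the effect of the protein. Both groups carry an altered svb, and no control library enters the fit: a gene that is higher in SvbACT says nothing of which of the groups had left its usual level.

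Library totals were 4361322, 4906179 and 6036911 counts in SvbACT and 4298998, 5097985 and 5518895 counts in the libraries labelled svb RNAi. At these depths a floor of 3 counts in a library stands for 0.534 to 0.712 CPM (counts scaled to a library of 1000000, with TMM factors), and such floors cover counting error only. The 10 most abundant genes held 7.54% to 8.76% of the counts. The first principal component of log2 CPM held 60.1% of the variance and set the 3 SvbACT libraries apart from the 3 labelled svb RNAi. The next components held 14.2% and 10.9%. In sorted bulk samples, fewer cells of a type and less RNA per cell cannot be told apart. The series' text places the replicates on different days, and the p-values measure the spread between these samples.

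The gene that both transgenes address, ovo (FBgn0003028), spans 5048273 to 5070929 of the plus strand of chromosome X in Ensembl's annotation. It received 8803, 11189 and 11901 counts in SvbACT, against 225, 206 and 209 counts in the libraries labelled svb RNAi. The control libraries of the series, which enter no test here, had 4, 64 and 3 counts. So ovo stood above control in the libraries labelled svb RNAi, which goes against what a knockdown label leads one to look for, and every direction below is against libraries labelled svb RNAi, not against cells shown to lack svb. Gene totals do not separate reads of the endogenous transcript from reads of the overexpressed transgene or of the hairpin. In CPM, ovo was at 2091, 2309 and 2119 in SvbACT and at 50.4, 37.1 and 37.997 in the libraries labelled svb RNAi, a log2 difference of 5.70 (SE 0.164, edgeR quasi-likelihood adjusted p = 5.91e-10). The noncoding gene lncRNA:CR44833 overlaps ovo on the other strand, at 4956646 to 5063868, and went the other way, with 4.99, 1.44 and 2.49 CPM in SvbACT and 27.8, 43.4 and 41.5 CPM in the libraries labelled svb RNAi (log2 fold change -3.68, SE 0.354, edgeR adjusted p = 7.83e-06). In counts, lncRNA:CR44833 had 21, 7 and 14 in SvbACT and 124, 241 and 228 in the libraries labelled svb RNAi. The control libraries, which enter no test here, had 17, 11 and 17. Whether strand was used in the counting is not stated, so the reads of ovo and lncRNA:CR44833 cannot be fully separated. Among the genes that process Svb, the ubiquitin ligase gene Ubr3 (log2 fold change 0.11, edgeR adjusted p = 0.533) and the ubiquitin-conjugating enzyme gene Ubc6 (-0.34, adjusted p = 0.117) did not pass the test. With the replicate block Ubc6 did, at an adjusted p of 0.0287.

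Of 7440 genes tested, 1501 (20.2%) had a Benjamini-Hochberg adjusted p under 0.05 in edgeR's quasi-likelihood test and are called here. They divide into 992 genes higher in SvbACT (13.3%) and 509 lower (6.84%). The counts of every gene list below are to be read beside these shares, and a list near them differs little from genes in general. Beyond 2-fold lay 697 of the called genes (9.37%): 530 were higher (7.12%) and 167 lower (2.24%), and beyond 4-fold 226 were higher and 70 lower. For 2599 genes (34.9%) all libraries of a group lay on the same side of all of the other. The median log2 fold change over all tested genes was -0.02. Replicate number 1 to 3 marks libraries that varied together, and with that number as a block the lower calls went up to 842 (11.3%) and the higher ones to 1207 (16.2%). Leaving out SvbACT replicate 1 left 301 lower calls, against 793 higher. With any 1 library left out, lower calls ranged over 301 to 512 and higher ones over 793 to 944. A list count given for another setting is to be read beside the calls of all genes in that setting, not beside 13.3% and 6.84%.

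**Figure D1:**
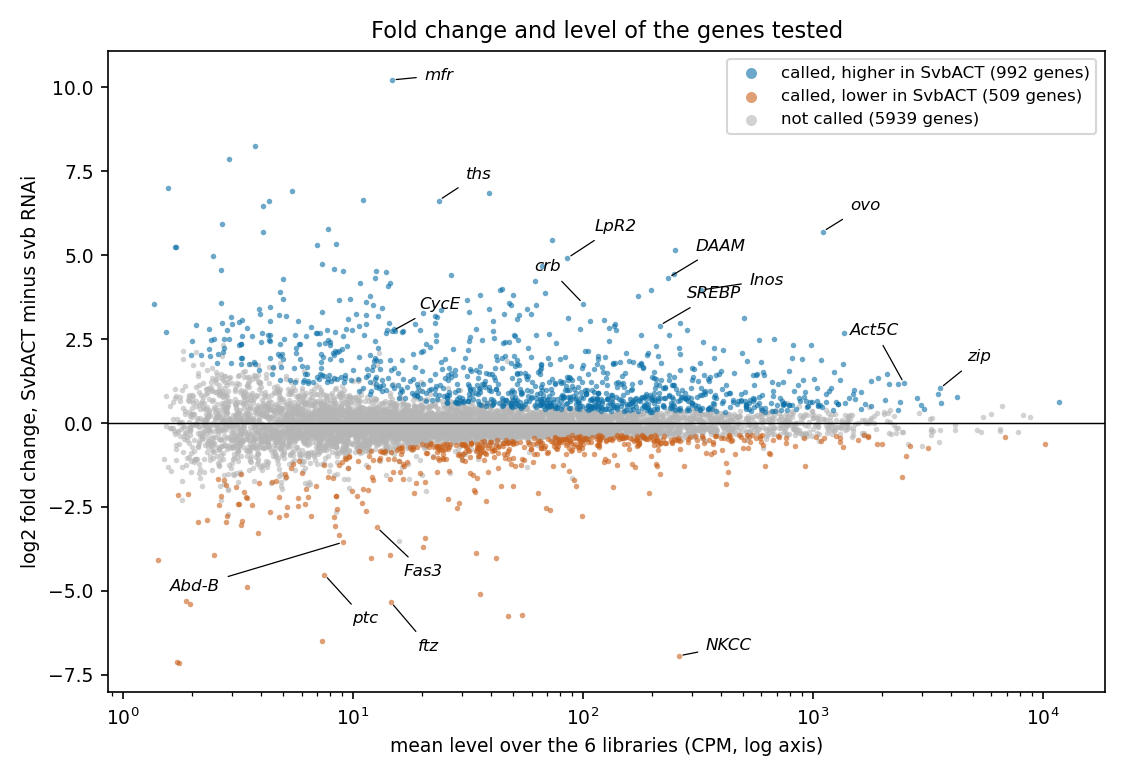
Each point is 1 of the 7440 tested genes, with its mean level over the 6 libraries on a log axis (CPM) and its fitted log2 fold change, SvbACT minus svb RNAi. There are 992 genes called higher and 509 called lower, with ovo at 5.70 and NKCC at -6.93. The fitted values of mfr, CG43446, CG14837, CG32181, disco and DAT rest on a group at 0 counts and are not bounds.

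Among the genes with the largest rise in SvbACT, mfr (misfire), a ferlin gene known from fertilization, had 31.1, 30.7 and 27.2 CPM in SvbACT and no count in any library labelled svb RNAi. Against a floor of 3 counts per library it was at least 50.7-fold higher. The FGF ligand gene ths was at 41.1, 37.6 and 62.1 CPM in SvbACT, against 0.224, 0.180 and 0.909 CPM in the libraries labelled svb RNAi, a fitted log2 change of 6.63 (SE 0.416, edgeR adjusted p = 1.63e-07). All 3 SvbACT libraries stood far above the others for both genes. The other FGF ligand genes did not go together. pyr, which like ths feeds the receptor Heartless, was at 9.74, 4.33 and 6.59 CPM in SvbACT and 2.69, 2.88 and 0.909 CPM in the libraries labelled svb RNAi (edgeR adjusted p = 0.0426). That call was lost without SvbACT replicates 1 or 3 or without any of the svb RNAi replicates, with an adjusted p of up to 0.190. bnl, the ligand of the receptor Breathless, was lower in SvbACT, at 12.1, 8.25 and 8.19 CPM, against 26.4, 37.5 and 31.3 CPM in the libraries labelled svb RNAi (log2 fold change -1.75, SE 0.238, edgeR adjusted p = 0.000164).

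The other large rises covered several kinds of gene. piwi, the nuclear piRNA-binding protein best known from the germline, was at 508, 515 and 450 CPM in SvbACT and 12.3, 16.6 and 12.5 CPM in the libraries labelled svb RNAi (log2 fold change 5.14, SE 0.155), the second smallest p of the comparison after ovo. piwi overlaps SCAR, and the counts of overlapping genes are uncertain. DAAM, a formin that nucleates actin filaments, was at 496, 485 and 367 CPM in SvbACT and 24.2, 19.1 and 23.8 CPM in the libraries labelled svb RNAi (log2 fold change 4.33, SE 0.165). DAAM, the netrin receptor gene unc-5 (log2 fold change 3.79, SE 0.149), the G protein-coupled receptor gene mthl14 (4.24, SE 0.168) and CG15117 (3.97, SE 0.150) were among the 10 genes of smallest p on the higher side, with CG5541 (2.99). Among the 15 largest rises of genes at 10 CPM or more in the higher group were also lncRNA:CR44953 (log2 fold change 6.85), the cytochrome P450 gene Cyp6a17 (6.64), CG42747 (5.44), the gene a (4.68) and the esterase gene alpha-Est1 (4.73), with CG9815, CG9270, CG13654, CG43064 and CG30043. Cyp6a17 had 0 counts in 2 libraries labelled svb RNAi, so that its fitted fold change depends on the small count that the fit adds.

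The most abundant genes beyond 2-fold rose by less. zip, the heavy chain of non-muscle myosin, had 4743, 4872 and 4852 CPM in SvbACT and 2271, 2294 and 2489 CPM in the libraries labelled svb RNAi. Act5C, a cytoplasmic actin gene, had 3716, 3499 and 3199 CPM in SvbACT and 1521, 1510 and 1556 CPM in the libraries labelled svb RNAi. The 6 libraries fell into 2 narrow groups for both. Egfr, the EGF receptor gene, Crag, an activator of Rab GTPases, Lrch, siz, kek5, CG43658, mgl and cher complete these 10, with log2 fold changes of 1.16 to 2.69.

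On the lower side, NKCC (3R, 5489505 to 5502702), a cotransporter of sodium, potassium and chloride, stood apart. It was at 1.19, 4.54 and 6.41 CPM in SvbACT and at 452, 567 and 544 CPM in the libraries labelled svb RNAi, a fitted log2 change of -6.93 (SE 0.290, edgeR adjusted p = 7.44e-09). It had the largest fall of the genes at 10 CPM or more in the higher group whose libraries did not overlap. Neighbouring genes on 3R, between 15135138 and 15140121, fell too. CG6912, CG3984 and asRNA:CR45600, which overlaps both, had log2 fold changes of -5.72, -6.51 and -5.74. CG3984 was at 0, 0.206 and 0.178 CPM in SvbACT, under the floor of 3 counts, and 21.3, 12.2 and 10.4 CPM in the libraries labelled svb RNAi. Its fitted value depends on the small count that the fit adds, and against that floor it was 23.5-fold lower. asRNA:CR45600 was at 3.09, 1.03 and 1.25 CPM in SvbACT and 93.2, 87.9 and 99.3 CPM in the libraries labelled svb RNAi. CG6912 and CG3984 do not overlap each other. Since strand use is not stated, asRNA:CR45600 may share reads with each of them.

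Several genes known from embryonic patterning were lower in SvbACT. The pair-rule homeobox gene ftz was at 0.950, 1.03 and 0.178 CPM in SvbACT and 22.0, 28.5 and 35.5 CPM in the libraries labelled svb RNAi (log2 fold change -5.33, SE 0.425). The Hox gene Abd-B was at 1.42, 0.619 and 2.14 CPM in SvbACT and 21.1, 17.1 and 12.4 CPM in the libraries labelled svb RNAi (-3.55, SE 0.436). Both were near the floor in SvbACT, where the 3 counts of the floor are 0.534 to 0.712 CPM. bowl, a zinc finger gene of the odd-skipped family, was at 18.0, 23.1 and 19.9 CPM in SvbACT and 132, 107 and 133 CPM in the libraries labelled svb RNAi (-2.60, SE 0.158). The Polycomb group gene Su(z)2 had a log2 fold change of -1.81 and 185, 181 and 192 CPM in SvbACT, against 647, 588 and 726 CPM in the libraries labelled svb RNAi. The transcription factor genes chinmo and hth fell by 2.57 and 2.51 on the log2 scale, and the call of hth was lost without SvbACT replicates 1 or 2 or svb RNAi replicates 1 or 3 (adjusted p of up to 0.106). Of 17 tested factors known for regional identity along the gut or body, 4 (23.5%) were called higher (vnd, GATAe, exex and bab1). Another 3 (17.6%) were lower (bowl, Abd-B and hth), beside 13.3% higher and 6.84% lower of all tested genes. The call of bab1 (log2 fold change 1.29) was lost when any library but svb RNAi replicate 1 was left out.

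Other large falls were of several kinds of gene. The leucine-rich repeat gene rdo was at 1.66, 1.65 and 2.67 CPM in SvbACT and 52.2, 66.1 and 91.1 CPM in the libraries labelled svb RNAi (log2 fold change -5.09, SE 0.294). The phosphodiesterase gene Pde1c (-4.03), the adenosine receptor gene AdoR (-4.02), the adhesion gene Con (-3.92), CG17387 (-3.86), the tetraspanin gene lbm (-3.42) and Msr-110 (-3.34) fell too. FBgn0042174, with no symbol in the table, was at -1.86. Of the called genes, 2 were at 0 counts in all 3 SvbACT libraries, disco and DAT, and 4 were at 0 in all 3 libraries labelled svb RNAi, mfr, CG14837, CG32181 and CG43446. Apart from mfr, these were named after their values were seen.

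**Figure D2:**
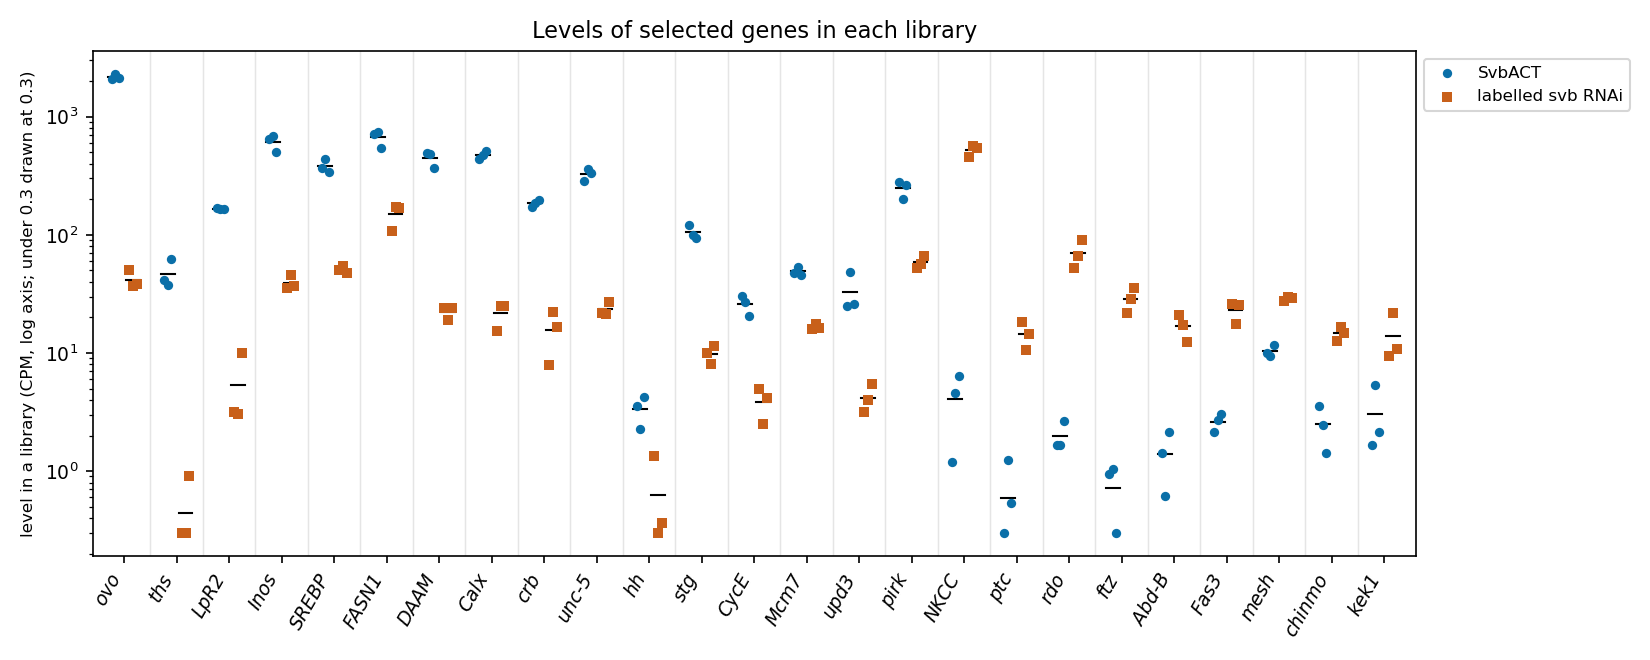
Levels (CPM, log axis) of selected genes in each library, SvbACT as circles and the libraries labelled svb RNAi as squares, with black bars at group means and values under 0.3 CPM drawn at 0.3. Every gene from ovo to pirk is higher in each SvbACT library than in any library labelled svb RNAi, and every gene from NKCC to kek1 is lower; NKCC is at 1.19 to 6.41 CPM in SvbACT and at 452 to 567 CPM in the libraries labelled svb RNAi.

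In the list of fatty acid, phospholipid and sterol metabolism, 51 genes were listed, 45 were in the table and 39 tested. Of these, 22 (56.4%) were called higher, 1 lower and 16 in neither direction, beside 13.3% and 6.84% of all tested genes. The median log2 fold change of the list was 0.58. The list was written after the largest changes had been seen, so its count describes these libraries and is not independent evidence of a direction. SREBP, the transcription factor that switches on lipid synthesis, was at 366, 437 and 342 CPM in SvbACT and 50.0, 54.8 and 47.8 CPM in the libraries labelled svb RNAi (log2 fold change 2.91, SE 0.134, edgeR adjusted p = 2.20e-08). FASN1, which builds fatty acids, was at 717, 743 and 547 CPM in SvbACT and 107, 170 and 169 CPM in the libraries labelled svb RNAi (2.16, SE 0.183). The enzymes that feed it were higher as well, ACC by 1.14 and ATPCL by 1.32 on the log2 scale.

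Other members called higher belong to further steps of the same metabolism. Inos, which makes inositol phosphate, the head group of an inositol lipid, was at 646, 692 and 506 CPM in SvbACT and 35.6, 45.7 and 36.5 CPM in the libraries labelled svb RNAi (log2 fold change 3.96, SE 0.162). Pect, an enzyme of phosphatidylethanolamine synthesis, was at 2.88, the acyltransferase gene Agpat2 at 2.74 and the lipid phosphatase gene laza at 2.79. Jabba, a lipid droplet protein, was at 3.05 and the lipid droplet protein gene Lsd-2 at 0.66. LpR2, a receptor for the lipoproteins of the blood, was at 169, 164 and 166 CPM in SvbACT and 3.14, 3.06 and 10.0 CPM in the libraries labelled svb RNAi (4.91, SE 0.306). The 3 SvbACT values of LpR2 differed by little, and the lowest of them was far above the highest of the others. mgl, a large endocytic receptor, was at 1.46, and the sterol transport genes Npc1a and Npc2a were at 0.73 and 1.17. The fatty acid transport gene Fatp1 was the member called lower (-0.60), a call lost without SvbACT replicate 1 or svb RNAi replicates 1 or 2. Npc1b, a sterol uptake gene and enterocyte marker, was at -1.67 and did not pass the test (adjusted p = 0.0986), but was called lower with the replicate block (-1.65, adjusted p = 0.000172).

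Sugar metabolism changed in part. Of 22 tested genes of glycolysis and pyruvate entry, 6 (27.3%) were called higher and 3 (13.6%) lower. With the replicate block the counts were 6 and 5, while the lower count was 1 without SvbACT replicate 1. Hexokinase (Hex-A) was at 1581, 1110 and 1571 CPM in SvbACT and 402, 338 and 402 CPM in the libraries labelled svb RNAi (log2 fold change 1.90, SE 0.154). Trehalase (Treh), which splits the blood sugar of insects, was at 1.58 and pyruvate dehydrogenase kinase (Pdk) at 1.30. The 2 paralogs of glyceraldehyde-3-phosphate dehydrogenase were called in opposite directions, Gapdh1 at 0.76 and Gapdh2 at -0.49.

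Of 39 tested DNA replication genes, 15 (38.5%) were called higher, 1 lower and 23 in neither direction, with a median log2 fold change of 0.66. Of 51 tested mitosis genes, 6 (11.8%) were called higher and 5 (9.80%) lower, near the 13.3% and 6.84% of all tested genes. Their median was 0.01, and 5 of the higher and 0 of the lower calls lay beyond 2-fold. The difference between the 2 lists was not tested. The mitotic counts depend on single libraries: they were 3 higher and 1 lower without SvbACT replicate 1, and 5, 3 and 4 higher with 2 lower each without svb RNAi replicates 1, 2 and 3. CycE, the cyclin that drives entry into S phase, was at 30.2, 27.0 and 20.5 CPM in SvbACT and 4.93, 2.52 and 4.18 CPM in the libraries labelled svb RNAi (2.74, SE 0.303). dup, which loads the replicative helicase, was at 59.8, 41.3 and 34.4 CPM in SvbACT and 9.18, 8.64 and 11.3 CPM in the libraries labelled svb RNAi (2.21, SE 0.242). The groups did not overlap for either gene. Mcm7 and dpa, subunits of that helicase, were at 1.56 and 1.16, the sliding clamp gene PCNA at 1.14, the origin recognition gene Orc2 at 1.25, thymidylate synthase (Ts) at 2.60 and both subunits of ribonucleotide reductase, RnrS and RnrL, at 0.79 and 0.86. The GINS subunit gene Psf3 was the member called lower (-0.85), a call lost without SvbACT replicates 1 or 2 or svb RNAi replicates 1 or 3.

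stg, the phosphatase that triggers mitosis, was at 121, 99.1 and 94.0 CPM in SvbACT and 10.1, 8.10 and 11.5 CPM in the libraries labelled svb RNAi, a fitted log2 change of 3.40 (SE 0.186, edgeR adjusted p = 6.74e-08). CycB, the mitotic cyclin, was at 75.3, 78.0 and 58.6 CPM in SvbACT and 28.2, 23.4 and 32.4 CPM in the libraries labelled svb RNAi (1.33, SE 0.178). The microtubule polymerase gene msps was at 1.03. The separase partner gene thr fell by 0.82. Other regulators did not pass the test: the mitotic kinase genes aurB and polo had log2 fold changes of 0.01 and -0.21, the cyclin genes CycA and CycD 0.17 and 0.11, the kinase gene Cdk1 -0.23 and the S phase factor gene E2f1 -0.06.

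The actin cytoskeleton list had 50 tested members, of which 22 (44.0%) were called higher and 1 lower, and 40 had a positive fold change. Its median was 0.32. Arp2, of the complex that branches filaments, was at 385, 437 and 403 CPM in SvbACT and 56.0, 65.9 and 77.3 CPM in the libraries labelled svb RNAi (log2 fold change 2.62, SE 0.137). ena, which lengthens filaments, was at 1.32, the bundling protein gene Fim at 1.28, the formin gene dia at 1.01, the capping subunit gene cpa at 1.19, the filamin gene cher at 1.75 and the second cytoplasmic actin gene Act42A at 0.75. Arp3 was at 0.99, while the subunit genes Arpc1, Arpc2, Arpc4 and Arpc5 of the same complex, at -0.15, 0.19, 0.17 and 0.74, did not pass the test. Arpc5 passed it with the replicate block (adjusted p = 0.0435) and without svb RNAi replicate 3. The unconventional myosin gene Myo61F fell to 20.7, 34.0 and 19.4 CPM in SvbACT, against 97.7, 121 and 93.3 CPM in the libraries labelled svb RNAi (-2.07, SE 0.210), while its relative Myo31DF rose by 1.04. Both class I myosins are known from the enterocyte brush border.

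In the embryonic epidermis Svb is known for its control of genes that shape cuticle hairs. Of 24 such genes listed, 15 were in the table and 6 were tested, and only mwh was called, higher in SvbACT at 7.12, 6.60 and 7.30 CPM, against 2.24, 0.360 and 0.727 CPM in the libraries labelled svb RNAi (log2 fold change 2.69, SE 0.588). The 9 others did not pass the filter on low counts. The actin bundling genes f and sn, with log2 fold changes of -0.30 and 0.02, did not pass the test.

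Polarity and asymmetric division genes gave 10 (43.5%) called higher and 1 (4.35%) lower of 23 tested, with a median log2 fold change of 0.17. crb, the apical determinant Crumbs, was at 172, 188 and 197 CPM in SvbACT and 7.84, 22.2 and 16.5 CPM in the libraries labelled svb RNAi (3.56, SE 0.252, edgeR adjusted p = 5.15e-07). insc, which orients the spindle in dividing stem cells, was at 523, 539 and 486 CPM in SvbACT and 205, 193 and 207 CPM in the libraries labelled svb RNAi (1.36, SE 0.109). baz, aPKC, numb, l(2)gl and brat rose by 0.60 to 0.79. sdt, which binds Crumbs, was lower at -0.93, a call lost without SvbACT replicates 2 or 3 or svb RNAi replicates 1 or 3.

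Surface proteins that guide axons in the nervous system were called in both directions. Of 38 tested guidance cues and receptors, 17 (44.7%) were called higher and 6 (15.8%) lower, with a median log2 fold change of 0.29. This list too was written after large changes had been seen, and its lower calls take in rdo (-5.09), given above among the large falls. unc-5 was at 285, 359 and 333 CPM in SvbACT and 22.0, 21.3 and 27.1 CPM in the libraries labelled svb RNAi. The ligand gene sli and its receptors robo1 and robo2 rose by 1.22, 0.61 and 0.62, and comm, which in the embryo keeps Robo from the surface, by 2.49. The semaphorin genes Sema2a and Sema2b were called in opposite directions. Sema2a was at 443, 403 and 471 CPM in SvbACT and 168, 156 and 181 CPM in the libraries labelled svb RNAi. Sema2b was at 82.4, 66.7 and 75.9 CPM in SvbACT and 277, 370 and 297 CPM in the libraries labelled svb RNAi. The fasciclin genes were too, with Fas2 at 1.51 and Fas3 at -3.10. Nrt, an adhesion protein gene, was at -1.92.

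In the adhesion and matrix list, 11 (37.9%) of 29 tested genes were called higher and 3 (10.3%) lower, with a median of 0.31. With the replicate block the counts were 13 and 6. The cadherin gene Cad87A was at 270, 207 and 259 CPM in SvbACT and 27.1, 41.8 and 24.9 CPM in the libraries labelled svb RNAi (log2 fold change 2.97, SE 0.190). The laminin gene LanB2 was at 2.00 and the immunoglobulin family gene rst at 3.50, and rst overlaps its paralog kirre. The integrin genes Itgbn and mew rose by 1.92 and 0.74. The septate junction and enterocyte membrane list had 4 (19.0%) called higher and 5 (23.8%) lower of 21 tested, with a median of 0.01. mesh, a protein of the smooth septate junctions of enterocytes, was at 9.97, 9.49 and 11.6 CPM in SvbACT and 27.6, 29.7 and 29.5 CPM in the libraries labelled svb RNAi (-1.48, SE 0.205), and Fas3 was at 2.14, 2.68 and 3.03 CPM in SvbACT and 25.8, 17.5 and 25.5 CPM in the libraries labelled svb RNAi. The lower count of this list was 3 without SvbACT replicates 1 or 3 or without svb RNAi replicate 2, and 2 where at least 50 counts were asked of a gene.

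**Figure D3:**
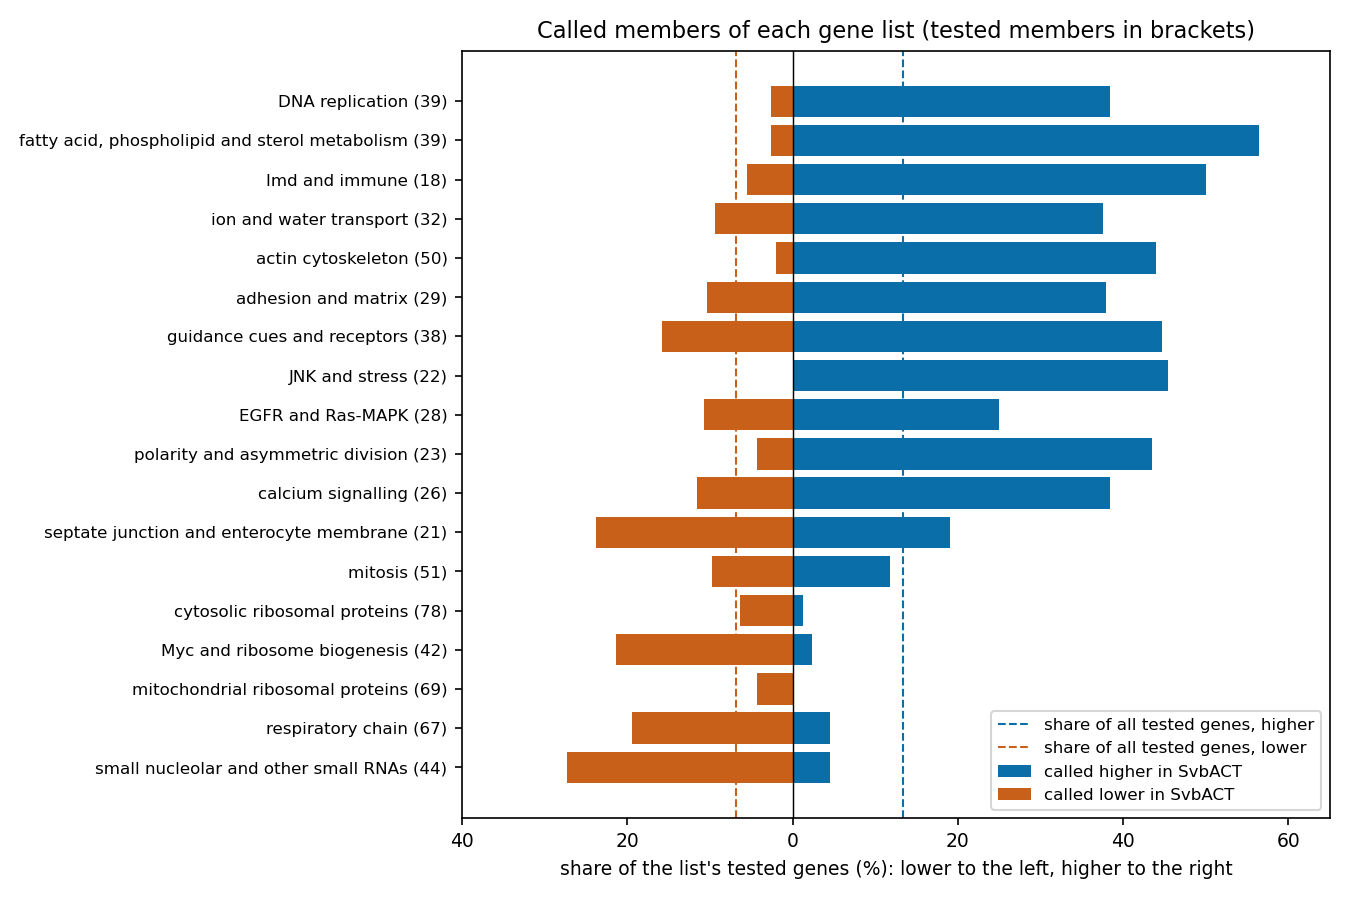
Share of the tested members of 18 lists that was called higher in SvbACT (right) and lower (left), lists in the order of their median log2 fold change, with dashed lines at the shares of all tested genes, 13.3% higher and 6.84% lower. Of these 18, lipid metabolism has the largest share higher, 56.4%, and small RNAs the largest share lower, 27.3%.

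Among signalling pathways, Hedgehog was called in mixed directions. ptc, the Hedgehog receptor and itself a standard target of the pathway, was at 0, 1.24 and 0.534 CPM in SvbACT and 18.4, 10.6 and 14.5 CPM in the libraries labelled svb RNAi (log2 fold change -4.52, SE 0.593, edgeR adjusted p = 0.000119). The signal transducer gene smo was at -0.42 and did not pass the test (adjusted p = 0.108). The transcription factor gene ci was at -0.97 and the scaffold gene cos at -1.07, and the call of ci was lost without SvbACT replicate 1 or svb RNAi replicate 3 (adjusted p of up to 0.0588). The co-receptor gene boi was at 0.83. The ligand gene hh was at 3.56, 2.27 and 4.27 CPM in SvbACT and 1.34, 0.180 and 0.364 CPM in the libraries labelled svb RNAi (2.45, SE 0.725, adjusted p = 0.0309), but that call was lost without SvbACT replicates 1 or 3 or svb RNAi replicates 2 or 3, with an adjusted p of up to 0.134. In all, 2 of 11 tested Hedgehog genes (18.2%) were called higher and 3 (27.3%) lower, beside 13.3% and 6.84% of all tested genes. This list and the FGF genes were also taken up after their largest changes had been seen.

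In EGFR and Ras-MAPK signalling, 7 of 28 tested genes were called higher and 3 lower, with a median log2 fold change of 0.23. The higher count was 4 without SvbACT replicate 1 or svb RNAi replicate 1, and 11 with the replicate block. Egfr was at 3350, 2976 and 3497 CPM in SvbACT and 1446, 1336 and 1558 CPM in the libraries labelled svb RNAi (1.18, SE 0.124). Pvr, the receptor of PDGF and VEGF type, was at 0.98. Inhibitors of the pathway did not go together. sty (sprouty), a feedback inhibitor, was at 1607, 1517 and 2018 CPM in SvbACT and 3486, 2763 and 3933 CPM in the libraries labelled svb RNAi (-0.99, SE 0.158), and kek1, another inhibitor, was at 1.66, 5.37 and 2.14 CPM in SvbACT and 9.41, 21.6 and 10.7 CPM in the libraries labelled svb RNAi (-2.18, SE 0.483). The feedback inhibitor gene aos had a log2 fold change of 0.40 (adjusted p = 0.0558, and 0.0182 with the replicate block). The phosphatase gene Mkp3, which inhibits the pathway too, was called higher at 0.41, a call lost without SvbACT replicates 1 or 3 or svb RNAi replicates 1 or 2 (adjusted p of up to 0.116).

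In the BMP pathway the extracellular modulator gene cv-2 was at 1068, 1162 and 1238 CPM in SvbACT and 190, 202 and 223 CPM in the libraries labelled svb RNAi (log2 fold change 2.496, SE 0.123, edgeR adjusted p = 2.87e-08). Dad, an inhibitor induced by the pathway, rose by 1.52, and brk, a gene that the pathway represses, was at -1.17. The receptor gene babo and the co-receptor gene dally were at -0.56 and -0.74. daw, a ligand of the activin branch, was called lower, at 0, 0.206 and 0 CPM in SvbACT, under the floor of 3 counts, and 2.02, 7.20 and 2.36 CPM in the libraries labelled svb RNAi (edgeR adjusted p = 0.00257). Its fitted log2 fold change of -5.40 depends on the small count that the fit adds. In all, 3 of 18 tested BMP and activin genes (16.7%) were called higher and 4 (22.2%) lower, beside 13.3% and 6.84% of all tested genes. In the Wnt list, 5 of 20 were called higher and 1 lower, and fz3, a standard target of the pathway, was at 40.4, 36.3 and 40.1 CPM in SvbACT and 9.18, 8.46 and 3.82 CPM in the libraries labelled svb RNAi (2.45, SE 0.279). Of 23 Hippo pathway genes, 6 (26.1%) were called higher, among them CycE and ex, and 2 (8.70%) lower. That lower count was 1 when any library but SvbACT replicate 2 was left out.

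In the JNK and stress list and the Imd and immune list, more genes were called higher than lower, as among all tested genes (13.3% and 6.84%). Other stress lists went the other way. Of 22 heat shock and chaperone genes 1 (4.55%) was higher and 4 (18.2%) lower. Redox genes had 3 (10.0%) higher and 6 (20.0%) lower of 30 tested. Of 22 tested JNK and stress genes, 10 (45.5%) were called higher and 0 lower in edgeR, with a median log2 fold change of 0.28. DESeq2 gave the same counts, and at an unadjusted p under 0.05 the counts were 10 and 1. The DNA damage response gene Gadd45 was at 93.8, 110 and 91.0 CPM in SvbACT and 24.9, 34.8 and 38.7 CPM in the libraries labelled svb RNAi (1.58, SE 0.174). Ets21C, a transcription factor of the stress response in these cells, was at 38.7, 109 and 39.0 CPM in SvbACT and 8.29, 14.8 and 10.2 CPM in the libraries labelled svb RNAi (2.48, SE 0.388), with replicate 2 the highest of either group. upd3, a cytokine that feeds the JAK/STAT pathway, was at 25.2, 48.1 and 25.8 CPM in SvbACT and 3.14, 3.96 and 5.45 CPM in the libraries labelled svb RNAi (2.96, SE 0.325, edgeR adjusted p = 2.57e-05). It is not in the JNK and stress list, but is counted in the JAK/STAT list and in the Imd and immune list. The kinase genes msn and hep and the AP-1 subunit gene kay rose by 0.85, 0.76 and 0.62, whereas puc, the feedback phosphatase of JNK, was at 0.21 and did not pass the test (adjusted p = 0.284). Among 13 tested JAK/STAT genes, Stat92E was at 0.66 and the kinase gene hop at -0.53.

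Of 47 genes in the Imd and immune list the table held 24 and 18 were tested. Of these 18, 9 (50.0%) were called higher and 1 (5.56%) lower, with a median of 0.47. pirk, a negative regulator of the Imd receptors, was at 282, 201 and 263 CPM in SvbACT and 52.9, 57.1 and 66.7 CPM in the libraries labelled svb RNAi (log2 fold change 2.08, SE 0.151). The receptor genes PGRP-LC and PGRP-LA rose by 0.79 and 1.11, the NF-kB factor genes Dif and dl by 0.92 and 0.98, and their inhibitor cact by 1.25. cact overlaps fzy, which was called in the other direction (-0.63), a call lost without SvbACT replicate 1 or svb RNAi replicates 2 or 3. The caspase gene Dredd of the Imd pathway was lower, at -0.73, while the caspase gene Strica was at 42.5, 37.1 and 41.7 CPM in SvbACT and 3.81, 5.04 and 6.18 CPM in the libraries labelled svb RNAi (2.99, SE 0.230), and the initiator caspase gene Dronc was at 1.02.

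Detoxification families were called in part. Of 32 tested cytochrome P450 genes 9 (28.1%) were called higher and 0 lower by edgeR, 13 had a negative fold change, and the median was 0.05. The counts were 9 and 1 by DESeq2 and 11 and 5 at an unadjusted p under 0.05. With the replicate block 2 were called lower, and without SvbACT replicate 2 there were 3. Of 13 tested UDP-glycosyltransferase genes, which attach sugars to foreign compounds, 7 (53.8%) were called higher and 0 lower by both tools. The counts were 9 and 1 at an unadjusted p under 0.05. Ugt303B3 was at 81.0, 89.6 and 98.1 CPM in SvbACT and 9.86, 6.30 and 7.27 CPM in the libraries labelled svb RNAi (log2 fold change 3.53, SE 0.196). Ugt303B1 and Ugt305A1 were at 2.58 and 2.16, and Cyp6a13, Cyp6a23 and Cyp305a1 at 1.79, 1.88 and 1.51. Paralogs that lie side by side in such families can share reads. Of 18 glutathione S-transferase genes 4 (22.2%) were called higher, a count of 2 (11.1%) without SvbACT replicate 2 or svb RNAi replicate 3, and 1 lower: GstT4 was at 3.28, and GstS1 was at 39.9, 61.3 and 41.1 CPM in SvbACT, against 139, 128 and 116 CPM in the libraries labelled svb RNAi (-1.43, SE 0.170).

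Calcium and ion transport held some of the largest changes of the comparison on both sides. Of 26 tested calcium signalling genes 10 (38.5%) were called higher and 3 (11.5%) lower, with a median log2 fold change of 0.06. Calx, which exports calcium in exchange for sodium, was at 441, 474 and 514 CPM in SvbACT and 15.2, 24.9 and 25.1 CPM in the libraries labelled svb RNAi (4.44, SE 0.178, edgeR adjusted p = 5.89e-09). Calx overlaps Alp5 and CG43446. Itpr, the channel that releases calcium from the endoplasmic reticulum, was at 423, 434 and 443 CPM in SvbACT and 93.6, 91.5 and 90.9 CPM in the libraries labelled svb RNAi (2.24, SE 0.108). The 2 groups lay far apart for both genes. The store-operated channel gene Orai rose by 1.10 and the phospholipase C gene norpA by 1.04, and the kinase gene CaMKII fell by 0.60.

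Of 32 tested ion and water transport genes 12 (37.5%) were called higher and 3 lower, with a median of 0.42. The higher count was 6 without SvbACT replicate 1, and 8 without SvbACT replicates 2 or 3 or without svb RNAi replicates 1 or 3. The potassium channel gene KCNQ was at 175, 154 and 227 CPM in SvbACT and 39.0, 52.95 and 55.6 CPM in the libraries labelled svb RNAi (log2 fold change 1.91, SE 0.174). The sodium-proton exchanger gene Nhe2 was at 2.71, bib, of the aquaporin family, at 1.33 and the ferritin genes Fer1HCH and Fer2LCH at 0.70 and 0.89. NKCC stands against these.

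**Figure D4:**
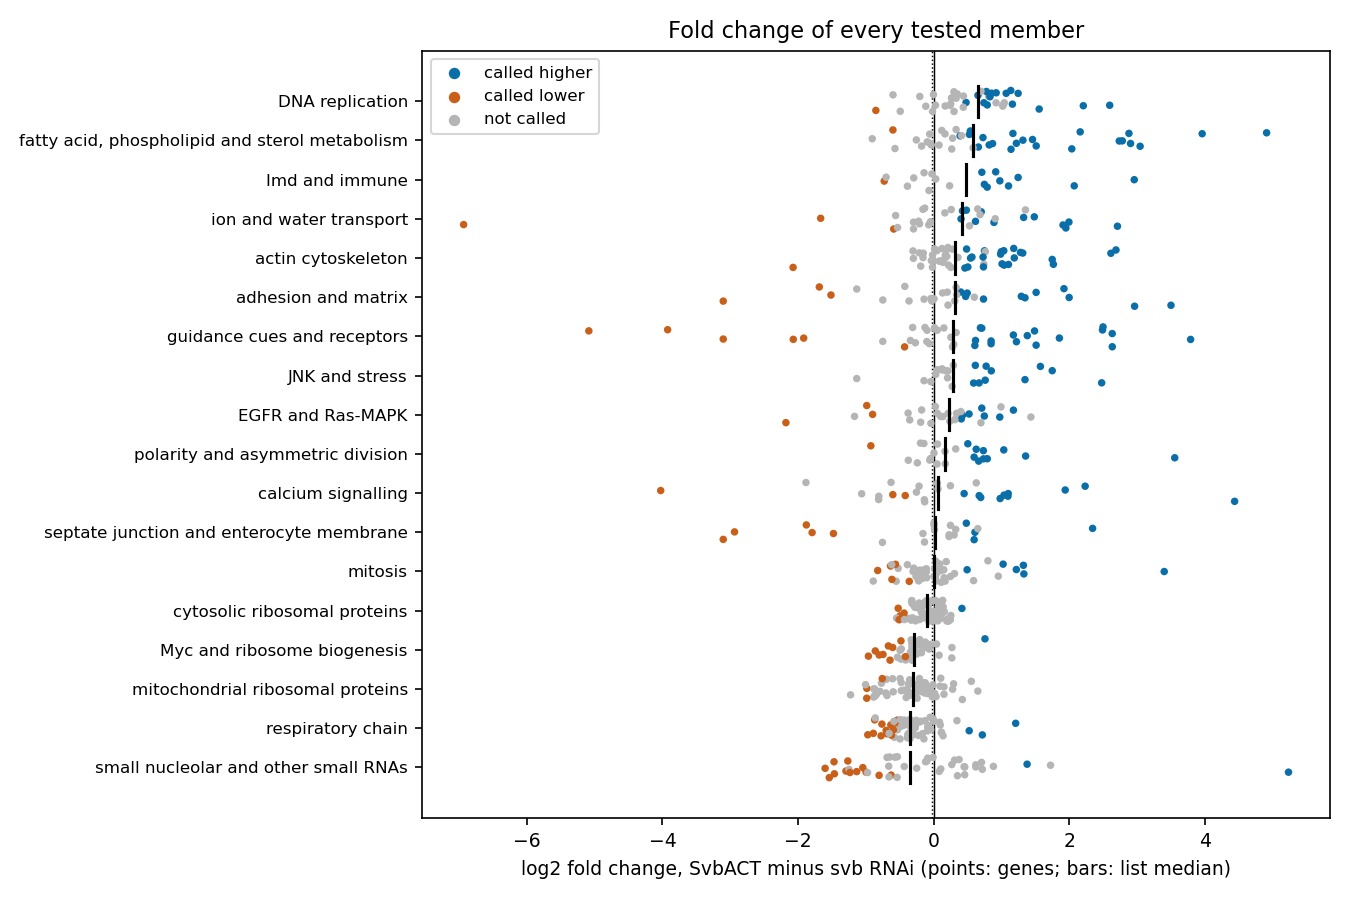
Log2 fold change, SvbACT minus svb RNAi, on the horizontal axis, of each tested member of 18 lists, coloured by whether it was called, with black bars at the list medians and a dotted line at the median of all genes. Lipid metabolism and DNA replication lie mainly to the right of 0 (medians 0.58 and 0.66), while NKCC, at -6.93, lies far to the left in the ion transport list.

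Since the ovo locus is known for its role in the female germline, oocyte and germline genes were examined too, on a list written after values had been seen. Of 25 tested, 9 (36.0%) were called higher and 1 (4.00%) lower. fs(1)K10, needed for the axes of the egg, was at 364, 291 and 383 CPM in SvbACT and 77.5, 61.8 and 70.7 CPM in the libraries labelled svb RNAi (log2 fold change 2.31, SE 0.141). smg, bol, exu and the synaptonemal complex gene c(2)M rose by 1.16, 1.68, 2.09 and 3.30, and egl, which carries RNA along microtubules, fell by 0.91. Of 21 tested piRNA pathway genes, 4 (19.0%) were called higher and 1 (4.76%) lower, beside 13.3% and 6.84% of all tested genes. The 4 take in piwi, the tudor domain gene tej (2.61) and del (0.89). The lower call was egg, and it was lost without SvbACT replicates 1 or 3 or svb RNAi replicates 2 or 3.

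In the lists of Myc and ribosome biogenesis and of the respiratory chain, more genes were called lower than higher. Other lists tied to growth did not all follow. Purine synthesis had 4 (28.6%) higher and 1 (7.14%) lower of 14, and tRNA synthetases 1 (3.23%) each way of 31. Insulin and TOR signalling had 2 (7.14%) higher and 3 (10.7%) lower of 28. Of 42 tested genes of Myc and ribosome biogenesis, 9 (21.4%) were called lower and 1 higher, 37 had a negative fold change, and the median was -0.29. The lower count was 14 without SvbACT replicate 2, 6 without SvbACT replicate 3 or svb RNAi replicate 3, and 15 with the replicate block. Nop60B, the pseudouridine synthase of the nucleolus, was at 262, 288 and 247 CPM in SvbACT and 499, 440 and 507 CPM in the libraries labelled svb RNAi (log2 fold change -0.86, SE 0.115), and pit, Nop56 and RpI1, the large subunit of RNA polymerase I, fell by 0.67, 0.64 and 0.60. Of 67 tested genes of the respiratory chain, 13 (19.4%) were called lower, beside 6.84% of all tested genes, and 3 higher, with 57 negative and a median of -0.34. That lower count was 4 to 7 (5.97% to 10.4%) without SvbACT replicates 1 or 3 or svb RNAi replicates 1 or 3. Lower calls over all tested genes fell too in these fits, to 301 of 7662, 391 of 7669, 359 of 7632 and 342 of 7664. With the replicate block the lower count was 22, where 11.3% of all tested genes were lower. UQCR-Q, COX5B and ATPsynE, small subunits, fell by 0.97, 0.87 and 0.78, while Cyt-c-p, the electron carrier cytochrome c, was at 79.1, 91.4 and 81.4 CPM in SvbACT and 43.7, 30.1 and 35.3 CPM in the libraries labelled svb RNAi (1.21, SE 0.163).

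In edgeR without the replicate block, ribosomal protein genes were called at about the background share or less. For the lower calls of the cytosolic ones this did not hold with the block or by DESeq2. Of 78 cytosolic ones 5 (6.41%) were lower and 1 higher, with a median of -0.10, which was -0.17 without SvbACT replicate 2 and -0.0265 without SvbACT replicate 3. The lower count was 20 with the replicate block, where 11.3% of all tested genes were lower. By DESeq2 it was 13, where 568 of all 7440 were lower. At an unadjusted p under 0.05, 19 were lower and 2 higher, beside 1029 and 1328 of all tested genes. The lower count was 9 without SvbACT replicate 2, 3 without svb RNAi replicate 3 and 2 without SvbACT replicate 1 or svb RNAi replicate 1. Of 69 mitochondrial ones 3 (4.35%) were lower and 0 higher by edgeR and DESeq2, 58 were negative and the median was -0.31. At an unadjusted p under 0.05, 10 of these were lower and 0 higher, and 0 to 2 were called lower when any 1 library was left out. Of 17 tested genes of the mitochondrial genome 0 were called by edgeR or DESeq2 in either direction and 3 were lower at an unadjusted p under 0.05, while the replicate block gave 8 lower. Of 22 heat shock and chaperone genes, 4 (18.2%) were lower and 1 (4.55%) higher. The lower count was 9 with the replicate block, 7 by DESeq2, 6 without svb RNAi replicate 2 and 1 without SvbACT replicate 1 or svb RNAi replicates 1 or 3.

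Small nucleolar RNAs, which guide the modification of ribosomal RNA, were among the most abundant genes called lower. Of 44 tested small noncoding RNAs, 12 (27.3%) were called lower and 2 higher, and 10 of the 13 annotated snoRNAs tested were lower. snoRNA:Or-aca4 was at 1187, 1225 and 1233 CPM in SvbACT and 4862, 3433 and 2759 CPM in the libraries labelled svb RNAi (log2 fold change -1.60, SE 0.180, edgeR adjusted p = 3.11e-05). The snoRNA gene FBgn0263472 was at 607, 490 and 513 CPM in SvbACT and 1861, 869 and 1216 CPM in the libraries labelled svb RNAi (-1.29, SE 0.220). The SvbACT libraries lay close together for both, and those labelled svb RNAi differed more among themselves. snoRNA:Psi28S-3342 and the snoRNA gene FBgn0263459 fell by 1.47 and 1.27, and snRNA:U6atac, of the minor spliceosome, by 1.54. With them among the 10 most abundant genes lower beyond 2-fold were bru2, an RNA-binding protein gene (-1.18), Ccdc85 (-1.51), CG32521 (-1.28) and CG43759 (-1.27).

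Among regulators of stem cell fate, Dl, the Notch ligand that marks stem cells, was at 1348, 845 and 1352 CPM in SvbACT and 488, 507 and 632 CPM in the libraries labelled svb RNAi (log2 fold change 1.12, SE 0.178, edgeR adjusted p = 0.000563). Every SvbACT library was above every other. Of 5 tested genes of the Enhancer of split complex, standard Notch targets, 2 were called lower: E(spl)malpha-BFM fell by 0.75 and E(spl)mbeta-HLH by 0.49. klu, a Notch target of enteroblasts, was called higher (0.92, edgeR adjusted p = 0.000221). The call of E(spl)mbeta-HLH was lost without SvbACT replicate 3 or svb RNAi replicate 3. The receptor gene N did not pass the test (-0.09, adjusted p = 0.667), and of its modifiers fng rose by 1.28 and O-fut1 fell by 1.27. Of 19 tested Notch pathway genes 3 (15.8%) were called higher and 3 (15.8%) lower, beside 13.3% and 6.84% of all tested genes. In the ecdysone response list 5 of 25 (20.0%) were called higher and 4 (16.0%) lower. There were 10 higher under the replicate block, 9 higher without SvbACT replicate 2, and 2 lower without svb RNAi replicates 1 or 3. The early gene br and the later gene Blimp-1 were both at 0.75, and ImpL2, a secreted insulin inhibitor, was at 22.6, 29.1 and 12.8 CPM in SvbACT and 59.8, 103 and 70.9 CPM in the libraries labelled svb RNAi (-1.87, SE 0.275).

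The labelled cell type was checked against its markers. Of 9 markers of stem cells and enteroblasts 8 were in the table, and their summed level was 9075 to 11598 CPM in SvbACT and 6188 to 7821 CPM in the libraries labelled svb RNAi. Of these, 5 were called higher, among them Sox100B (1.13), klu (0.92), zfh2 (0.87) and Sox21a (0.73), and 2 lower. esg, the gene of the driver, had 2513, 2178 and 2606 CPM in SvbACT and 2326, 1774 and 2146 CPM in the libraries labelled svb RNAi and did not pass the test (0.22, adjusted p = 0.291). Both groups thus had the markers of the labelled cells at high levels.

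Markers of other cell types moved with the groups in part. The 12 enterocyte markers summed to 448 to 570 CPM in SvbACT and 342 to 447 CPM in the libraries labelled svb RNAi. Most of this was Myo31DF. The sum of the other 11 markers went the other way, at 69.6, 107 and 100.4 CPM in SvbACT and 178, 244 and 198 CPM in the libraries labelled svb RNAi. Not each of them did: betaTry had a log2 fold change of 0.05 and did not pass the test. Myo31DF was called higher, while the digestive genes alphaTry and Mal-A1 were called lower, with log2 fold changes of -1.95 and -1.87. The call of Mal-A1 was lost without SvbACT replicates 1 or 3 or svb RNAi replicates 1 or 2. The 10 enteroendocrine markers summed to 236 to 457 CPM in SvbACT and 266 to 922 CPM in the libraries labelled svb RNAi, and their peptide genes went opposite ways. Tk was at 45.1, 59.8 and 27.8 CPM in SvbACT and 8.06, 3.06 and 2.00 CPM in the libraries labelled svb RNAi (3.37, SE 0.420, edgeR adjusted p = 7.27e-05). Orcokinin was at 68.2, 9.49 and 1.60 CPM in SvbACT and 275, 143 and 99.1 CPM in the libraries labelled svb RNAi (-2.76, SE 0.752, adjusted p = 0.0207, and 0.0767 without svb RNAi replicate 1). AstC fell too (-2.04, adjusted p = 0.0326), a call lost without SvbACT replicates 2 or 3 or svb RNAi replicate 1. The peptide gene NPF and the enteroendocrine factor gene pros did not pass the test (0.03 and -0.19), though NPF passed it, on the higher side, without svb RNAi replicate 1.

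The 3 hemocyte markers in the table summed to 184 to 236 CPM in SvbACT and 69.2 to 78.2 CPM in the libraries labelled svb RNAi. Nearly all of this was crq, a scavenger receptor that overlaps the Hippo pathway gene ex, and the defining hemocyte marker Hml was at 0.950 CPM or less in every library. Visceral muscle markers summed to 119 to 171 CPM in SvbACT and 112 to 150 CPM in the libraries labelled svb RNAi, mostly from how, which did not pass the test. The troponin gene wupA was called higher, with 29, 29 and 25 counts in SvbACT and 0, 6 and 5 counts in the libraries labelled svb RNAi (3.01, edgeR adjusted p = 0.00701). Of 6 neuron and glia markers 3 were in the table, and they summed to 206 to 337 CPM in SvbACT and 167 to 242 CPM in the libraries labelled svb RNAi. Most of this was elav, which was called higher (0.67, edgeR adjusted p = 0.0190). The call of elav was lost without SvbACT replicates 1 or 3 or svb RNAi replicate 2 (adjusted p of up to 0.103). Markers of trachea, fat body and ovary, and Malpighian tubule summed to no more than 9.26 CPM in any library. Only 2 of 6, 5 of 7 and 2 of 5 of those listed were in the table, and 0 passed the filter. These low sums are thus a check in part only. The part of these cell types in the septate junction, brush border, digestive and peptide genes given above was not tested.

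Called genes were longer and more abundant than tested genes in general. Coding genes called higher had a median exon length of 3281 bases and those called lower 2963 bases, against 2255 bases for all tested. Over 5 groups of equal size by exon length, the share called higher was 3.78%, 9.76%, 13.3%, 16.3% and 24.0% from the shortest to the longest, and the share called lower was 6.20%, 3.99%, 4.56%, 8.20% and 10.5%. Over 5 groups by mean level the share called higher was 7.63%, 7.77%, 9.41%, 17.5% and 24.8%, and the share called lower was 3.56%, 4.21%, 6.77%, 8.77% and 10.1%. The median log2 fold change was -0.13 in the shortest group and 0.03 in the longest. The ribosomal protein, respiratory chain and small RNA lists hold short genes, and the part of length in their fold changes was not tested.

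**Figure D5:**
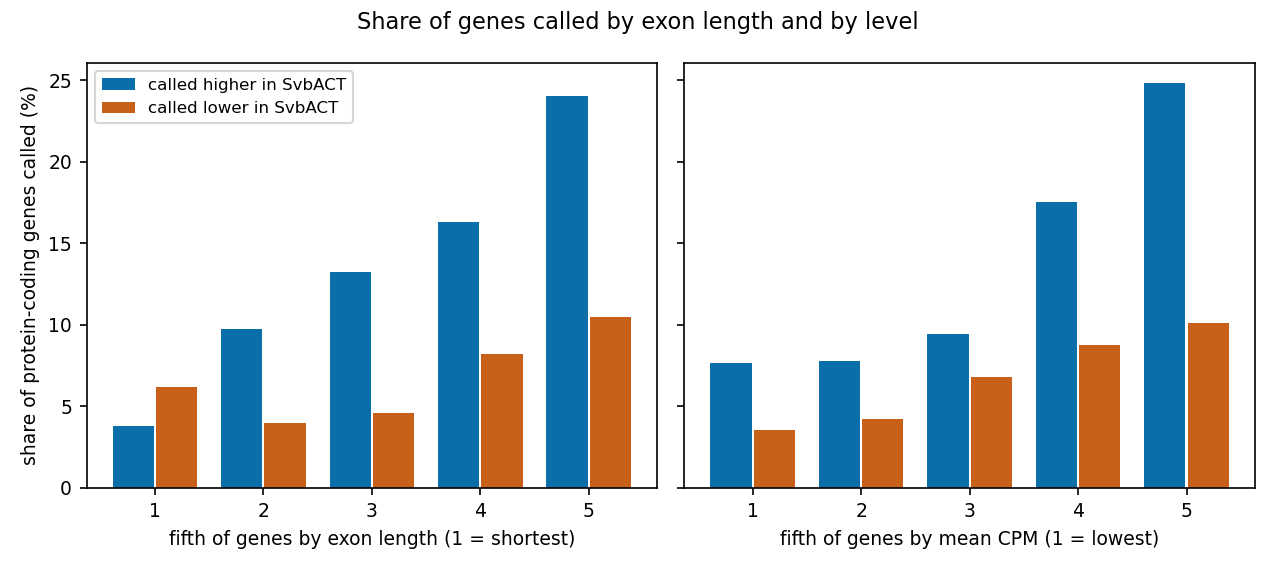
Share of coding genes called higher and called lower in SvbACT in 5 groups of equal size, by exon length and by mean level over the 6 libraries. The share called higher goes up with length, to 24.0% in the longest group, and with level, to 24.8% in the highest.

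The authors' deposited table of the same comparison marks 1503 genes, 976 higher and 527 lower in SvbACT. Of these, 1354 match a call given here in direction, and 0 go against one. The log2 fold changes of the authors' deposited table differed from those given here by 0.0835 at most.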

How the data were processed

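RNA of sorted midgut cells was made into libraries with the Ovation SoLo kit and read as 100-nt single reads, per the labels' protocols. The submitters' processing notes name FastQC 0.11.5, STAR 2.5.2b, HTSeq 0.6.0, edgeR and the build dm6, and the annotation and the strand setting are not given in the sources used here. The authors deposited 1 table of 8802 genes with raw counts per library and, for 5 comparisons, their own log2 fold changes, p-values and a call score per gene. The deposited counts were the basis of every test; the authors' deposited table is quoted only where named.

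The 3 SvbACT and 3 svb RNAi libraries were fitted together in edgeR 4.0.16 (R 4.3.3; quasi-likelihood F test, TMM factors, limma 3.58.1), after a filter that asked for about 10 counts in a group's libraries and 15 in all. 7440 genes passed. Genes with a Benjamini-Hochberg adjusted p under 0.05 over all of them are called. SE was taken from the F statistic as the size of the log2 fold change over its root. CPM uses the TMM factors and is not corrected for gene length. Alternatives were DESeq2 1.42.0, RLE factors, other filters, a replicate block, 9 libraries in the fit and each library left out. The fits were tested on simulated data. Names and positions came from Ensembl release 115 (BDGP6.54), which held 8686 of the 8802 identifiers. pandas 2.3.3 and matplotlib 3.10.9 were used for tables and plots.

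Deviations of libraries with the same replicate number correlated at 0.200, 0.222 and 0.267 across genes, and the series' text places replicates on different days, so the numbers pair the libraries. The values given are from the fit without the block unless stated, so that fit leaves the pairing out. It called 1501 genes, against 2049 with the block. The common coefficient of variation between replicates was 19.1% without the block and 13.5% with it. A gene said not to pass the test did not pass it in the fit without the block.

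Genes were named from among, on each side, the 15 called genes of largest fold change (10 CPM or more in the higher group, no overlap), the 10 of smallest p, the 10 most abundant beyond 2-fold, called members of 57 gene lists, ovo and cell type markers. Another 24 genes, mostly members that were not called, were named after their values were seen. The members and lists were chosen with earlier results of these data known, and 5 lists (lipid metabolism, guidance, Hedgehog, FGF, germline) were added after values had been seen. List counts are descriptions with no test of their own. Counts take in every tested member of a list, and 1 member's own values are not reported here. Of the called genes, 509 overlap another gene, and reads of overlapping genes cannot be fully separated. A search of promoters for an Ovo motif was planned and not run, since no sequence was used here.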

Additional observations from a re-analysis of the deposited data

How the results depend on the processing

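Under 13 other settings no called gene turned to the opposite call. Over 505 named genes and their settings, 5330 values kept direction and side of the threshold, 622 kept direction but lost the call and 15 gained one. Another 27 values changed sign, and 0 of them passed the test; they belong to 12 genes of which 0 are called. With 1 library left out, these genes ranged over -0.48 to 0.0872 for Cdk1, -0.20 to 0.0505 for E2f1, -0.0635 to 0.0597 for aurB, -0.47 to 0.0580 for f, -0.26 to 0.26 for sn, -0.38 to 0.56 for up, -0.30 to 0.87 for NPF, -0.57 to 0.47 for pros, -0.83 to 0.45 for nSyb, -0.56 to 0.63 for betaTry, -0.46 to 0.38 for Jon65Aiii and -0.91 to 0.29 for Jon65Aiv. betaTry was at -0.20 with the replicate block, and aurB and up were at -0.00136 and -0.00195 with RLE factors and -0.000962 and -0.00296 in DESeq2. Lost calls numbered 65 to 118 when 1 library was left out, 48 with 9 libraries in the fit, 11 in DESeq2, 7 without a filter and 2 with RLE factors. The replicate block lost asRNA:CR44892 (1.73, adjusted p = 0.0583) and gained Amy-p (-1.09, 0.00500), srp (1.16, 0.0234), mag (-0.82, 0.0296), Npc1b (-1.65, 0.000172), Ubc6, aos and Arpc5; it changed the call of no other named gene.

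Total calls were 1571 in DESeq2, 1520 with RLE factors, 1521 without a filter, 1378 with 9 libraries and 2049 with the block. Calls lower in SvbACT were 842 with the block and 820 with the block and at least 50 counts, a setting chosen after seeing the data, and 301 to 512 when 1 library was left out, lowest without SvbACT replicate 1. Of the 509 lower and 992 higher calls, 507 and 988 were kept with the block. Lower calls were 33.9% of all calls, and 41.1% with the block. Called genes lower beyond 2-fold were 111 with at least 50 counts, which leaves 5556 genes.

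With at least 50 counts, which tests fewer members, list medians were 0.46 for DNA replication, -0.11 for mitosis, 0.69 for lipid metabolism, 0.23 for septate junctions, 0.73 for Imd, -0.25 for mitochondrial ribosomal proteins, -0.98 for small RNAs, 0.26 for calcium and 0.21 for ion transport. With 1 library left out, medians ranged over 0.53 to 0.66 for DNA replication, -0.0811 to -0.00330 for mitosis, 0.49 to 0.67 for lipid metabolism, 0.28 to 0.38 for actin, 0.20 to 0.35 for adhesion, 0.16 to 0.28 for polarity, 0.00200 to 0.13 for septate junctions, 0.16 to 0.28 for EGFR, 0.25 to 0.46 for JNK, 0.36 to 0.67 for Imd, -0.40 to -0.24 for Myc and ribosome biogenesis, -0.37 to -0.25 for mitochondrial ribosomal proteins, -0.37 to -0.28 for the respiratory chain, -0.17 to -0.0265 for cytosolic ribosomal proteins, -0.47 to -0.21 for small RNAs and -0.0628 to 0.22 for calcium. The sign of the mitosis and calcium medians is thus not settled. Where not stated, the cause was not tested. Genes near 3 counts in a library have fold changes that depth limits.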

Other observations

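Further lists gave the following counts. They are given beside 13.3% higher and 6.84% lower of all tested genes. Of 24 Polycomb group genes 4 (16.7%) were lower and 1 (4.17%) higher, with Psc, the neighbour and relative of Su(z)2, at -0.92. The lower count was 7 with the replicate block and 2 without SvbACT replicate 1 or svb RNAi replicates 2 or 3. Of 16 apoptosis genes 3 were higher and 4 lower, with the caspase gene Damm at -1.76, the lower count being 2 without SvbACT replicates 1 or 3 or svb RNAi replicates 2 or 3. Of 15 tetraspanin genes 3 (20.0%) were higher, among them Tsp42Ed (2.78) and Tsp29Fa (2.36), and 1 (6.67%) lower, Tsp42El (-2.39). Of 14 purine synthesis genes 4 (28.6%) were higher and 1 (7.14%) lower. Of 30 redox genes 3 (10.0%) were higher and 6 (20.0%) lower. The lower count was 3 without SvbACT replicate 3, and the higher count was 1 without SvbACT replicates 1 or 2 or svb RNAi replicates 1 or 3. The clock gene per was lower, at -0.90.

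Females carry no Y chromosome, yet 4 genes annotated on the Y were tested. kl-3 had 27, 26 and 93 counts in SvbACT and 5, 1 and 1 counts in the libraries labelled svb RNAi, and was called higher (log2 fold change 4.29, edgeR adjusted p = 0.000943). Ppr-Y had 98, 97 and 59 counts in SvbACT and 125, 140 and 106 counts in the libraries labelled svb RNAi, kl-5 had 76, 78 and 84 counts in SvbACT and 110, 126 and 124 counts in the libraries labelled svb RNAi, and CCY had 49, 45 and 43 counts in SvbACT and 73, 81 and 59 counts in the libraries labelled svb RNAi. The source of these reads was not tested.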
